A study of Rattus norvegicus with 12 samples.

Results

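Expression of 6 genes of extracellular matrix turnover was followed in rat hearts: the matrix metalloproteinases Mmp2, Mmp3, Mmp9, Mmp12 and Mmp14, and the inhibitor Timp1. They were selected by a fixed list of Ensembl rat gene IDs, written with earlier results of these data known, and are 6 of the 19955 genes in the deposited table. The symbols came with the selection. The table lists IDs alone, so the pairing of ID and symbol was not checked here. The IDs are ENSRNOG00000016695 for Mmp2, ENSRNOG00000032626 for Mmp3, ENSRNOG00000017539 for Mmp9, ENSRNOG00000030187 for Mmp12, ENSRNOG00000010947 for Mmp14 and ENSRNOG00000010208 for Timp1.

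RNA was sequenced from hearts of wild-type Sprague Dawley rats. The sham group had surgery without an infarct, the MI group had a myocardial infarction, and the Patch group had an infarct with a patch sewn to its edge with silk thread. No transgene or drug is named for any group, and the labels give neither the sampled region, the time after surgery, the age nor whether animals were pooled. The labels describe 4 samples per group. By their names, 4 columns of the table belonged to MI (MI1, MI2, MI162, MI165), 4 to Patch (P695, P697, P699, P985) and 2 to sham (sham1, sham2), and these 10 libraries were used. The other 2 columns are named ctrl, which matches no label, and were not used here. They may or may not be the remaining 2 sham samples, so the sham values given here stand for 2 libraries and possibly for only part of the sham group.

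Matrix metalloproteinases are zinc enzymes that cut proteins of the extracellular matrix. They are made as inactive proenzymes, are switched on by removal of a propeptide, and are blocked by the tissue inhibitors of metalloproteinases, of which Timp1 is one. In the infarcted heart they are known for degrading the old matrix while a collagen scar is laid down, and macrophages, neutrophils and fibroblasts are among their known sources. In bulk heart samples, fewer cells of a type and less RNA per cell cannot be told apart.

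Upstream sequences were read for the members that the RefSeq upstream table (build GRCr8) holds, which were 3: Mmp12, Mmp3 and Timp1. It held none for Mmp2, Mmp9 and Mmp14. Of the 3 read, Mmp12 and Timp1 rose after infarction, and Mmp3 lies close to Mmp12 on the same chromosome. The 250 bases before the transcript start that the RefSeq upstream table uses are shown 5′ to 3′ on the gene's strand, at chr8:12866402-12866651 (plus strand) for Mmp12, chr8:12925031-12925280 (plus strand) for Mmp3 and chrX:3771123-3771372 (minus strand) for Timp1. That start is the edge of the annotated gene for Mmp12. The gene span reaches 14 bases further upstream for Mmp3 and 1456 bases further for Timp1, so those windows lie partly or wholly inside the span, and distances are counted from the start used. Capitals mark matches, on either strand, to 4 motifs: TGANTCA, the consensus of the factor AP-1; TGAGTAA, a variant known from the Timp1 upstream region; TATAAA, the TATA box; and GGGCGG, the GC box, which reads CCGCCC on the other strand.
Mmp12: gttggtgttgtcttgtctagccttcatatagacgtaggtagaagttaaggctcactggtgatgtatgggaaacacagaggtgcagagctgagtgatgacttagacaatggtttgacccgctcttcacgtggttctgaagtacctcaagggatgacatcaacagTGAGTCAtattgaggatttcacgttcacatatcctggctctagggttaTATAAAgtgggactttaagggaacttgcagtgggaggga
Mmp3: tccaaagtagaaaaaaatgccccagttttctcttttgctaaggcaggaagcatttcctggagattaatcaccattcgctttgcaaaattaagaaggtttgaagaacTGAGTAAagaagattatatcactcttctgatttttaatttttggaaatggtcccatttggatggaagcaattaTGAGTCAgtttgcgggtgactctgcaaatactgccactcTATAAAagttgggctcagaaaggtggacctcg
Timp1: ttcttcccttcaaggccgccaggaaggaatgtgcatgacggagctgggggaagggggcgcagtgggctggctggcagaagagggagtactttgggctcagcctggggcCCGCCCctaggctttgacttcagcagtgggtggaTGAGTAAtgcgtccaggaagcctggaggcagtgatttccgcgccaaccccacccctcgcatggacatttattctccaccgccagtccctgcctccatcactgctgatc

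TGANTCA was found once in Mmp12, starting 87 bases before the start used, and once in Mmp3, at 71 bases, and was not found in the Timp1 window. It occurs in 6.34% of the 33469 upstream windows of the same length. The variant TGAGTAA lay 108 bases before the start in Timp1 and 144 in Mmp3, and occurs in 2.38% of windows. A TATA box lay 39 bases before the start in Mmp12 and 32 in Mmp3 and occurs in 12.9% of windows. Timp1 had instead a GC box, at 142 bases, a motif found in 30.5% of windows. The GC content of the window was 45.6% in Mmp12, 38.8% in Mmp3 and 61.2% in Timp1, where the median of all windows was 51.2%. These matches describe letters only. Mmp12 and Mmp3 shared TGANTCA and a TATA box in these windows. Mmp12 had reads in each of the 8 MI and Patch libraries, and Mmp3 in 1 of them.

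Values are the authors' normalized signal, that is, read counts divided by 1 factor per library, so they compare a gene between libraries but not 1 gene with another. Total reads were 11420710 to 14110864 per library, and 1 read was worth 0.790 to 1.12 units of signal. Among them, 2 libraries stood apart. MI2 had 5474 genes at 0 and 169 genes with a single read, where the other 9 libraries had 2400 to 3335 and 632 to 979. P699 was set apart from the other Patch libraries by the rule that chose the genes, which was written with earlier results of these data known. The members' limma differences between groups that include MI2 or P699 are therefore also given without that library. The labels do not say whether samples came from separate animals, so p-values measure the spread between these libraries, which may be partly technical.

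Of the 5 members with enough signal to test, 4 rose after infarction: Mmp2, Mmp12, Mmp14 and Timp1. The fifth, Mmp9, did not pass the test, and Mmp3 was too low to be tested. Calls were made with limma on log2(signal + 1) at a Benjamini-Hochberg adjusted p under 0.05 over 17091 genes, of which 7.3% were called higher in MI than in sham. The median log2 difference was 2.36 over the 5 members tested and 0.01 over all genes tested, and the former is the same with Mmp12 at its lower bound. In all 5 the MI libraries lay above both sham libraries, as in 17.1% of genes. Without MI2 the log2 differences were 2.03 for Mmp2 (limma adjusted p 0.00243), 3.17 for Mmp14 (0.00110), 2.45 for Timp1 (0.00846), 8.24 for Mmp12 (0.0113) and 2.00 for Mmp9 (0.156), with the same members past the threshold. In that fit 14.6% of all genes were called higher in MI. The unadjusted limma p fell for Mmp14 only (0.000336 to 3.51e-05). It rose for Mmp2 (0.000141 to 0.000154), Timp1 (0.000709 to 0.00116), Mmp12 (0.00159 to 0.00177) and Mmp9 (0.0683 to 0.0687).

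**Figure D1:**
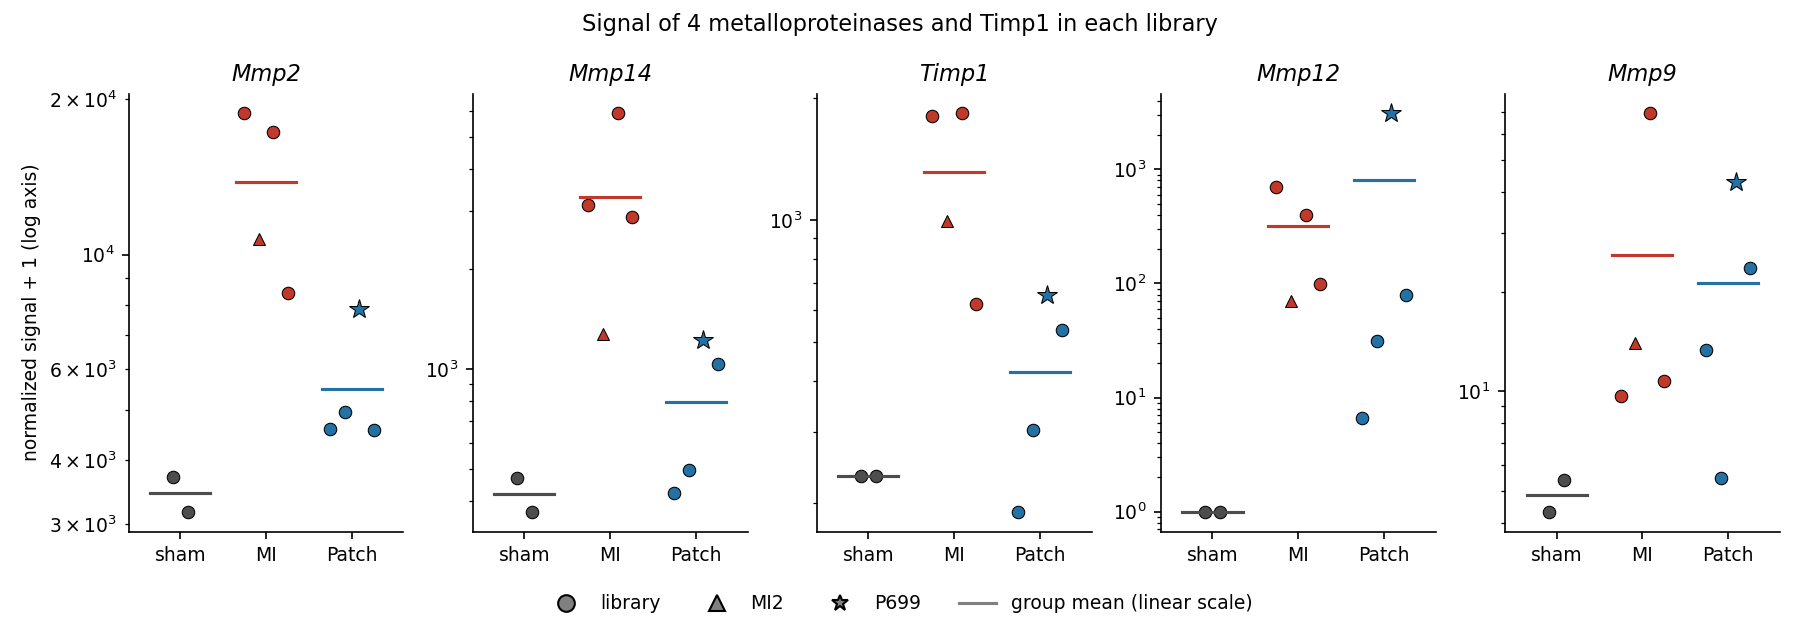
Normalized signal plus 1 (log axis, a separate range for each gene) of Mmp2, Mmp14, Timp1, Mmp12 and Mmp9 in 2 sham, 4 MI and 4 Patch libraries. Points are libraries, bars are group means on the linear scale, the triangle is MI2 and the star is P699. P699 is the highest Patch library in each panel, and for Mmp12 it is at 3093, above all MI libraries.

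Mmp2, gelatinase A, digests denatured collagen and basement membrane and is made mainly by stromal cells. Its signal was 3713 and 3174 in the sham libraries. In MI it was 18777 in MI1, 10722 in MI2, 17293 in MI162 and 8416 in MI165. In Patch it was 4599 in P695, 4949 in P697, 4573 in P985 and 7839 in P699. The groups were fully ordered, with each MI library above each Patch library and each Patch library above both sham libraries. Of all genes tested, 1.45% had that order.

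The mean of Mmp2 was 13802 ± 5014 (SD, n = 4) in MI, against 3444 ± 381 (SD, n = 2) in sham and 5490 ± 1575 (SD, n = 4) for the Patch libraries. The MI mean was 4.01-fold the sham mean. The difference of mean log2(signal + 1), which weights libraries differently from a ratio of means and is the quantity tested, was 1.93 (SE 0.341, limma adjusted p 0.00865). Relative to MI, Patch fell by 1.29 in log2 (SE 0.278, limma adjusted p 0.0186). Patch stood 0.64 above sham (95% interval −0.11 to 1.39, limma adjusted p 1), which did not pass. The 4 Patch libraries spanned 1.71-fold and the 4 MI libraries 2.23-fold. The 3 Patch libraries other than P699 were close together, at 4707 ± 210 (SD, n = 3).

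Mmp14, a membrane-anchored collagenase also called MT1-MMP, activates pro-Mmp2 at the cell surface. Its signal was 468.5 and 371.6 in sham. In MI it was 3129 in MI1, 1279 in MI2, 5887 in MI162 and 2876 in MI165. In Patch it was 423.4 in P695, 496.7 in P697, 1039 in P985 and 1220 in P699. All MI libraries lay above all Patch libraries, but P695 was between the sham libraries, so Patch and sham overlapped. The Patch values formed a low pair, P695 and P697, and a higher pair, P985 and P699.

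The mean of Mmp14 was 3293 ± 1914 (SD, n = 4) in MI, against 420.1 ± 68.6 (SD, n = 2) in sham and 794.6 ± 394 (SD, n = 4) for the Patch libraries. The MI mean was 7.84-fold the sham mean, and the difference of mean log2(signal + 1) was 2.78 (SE 0.545, limma adjusted p 0.0115), a rise that ranked 276th from the top among the 17091 genes. MI2 was the lowest MI library. Patch fell by 2.00 relative to MI (SE 0.445, limma adjusted p 0.0205) on that log2 scale, and the ratio of the MI mean to the Patch mean was 4.14. The difference of 0.78 between Patch and sham (95% interval −0.42 to 1.98, limma adjusted p 1) did not pass.

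Timp1, a secreted inhibitor that binds the active site of most metalloproteinases, was at 232.1 and 232.7 in the sham libraries. In MI its signal was 1804 in MI1, 995.3 in MI2, 1829 in MI162 and 620.3 in MI165. In Patch it was 189.8 in P695, 302.5 in P697, 535.2 in P985 and 652.6 in P699. MI lay wholly above sham. Patch overlapped both neighbours in the order, since P695 was below both sham libraries and P699 above MI165.

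The mean of Timp1 was 1312 ± 602 (SD, n = 4) in MI, against 232.4 ± 0.426 (SD, n = 2) in sham and 420.0 ± 211 (SD, n = 4) for the Patch libraries. The close agreement of the sham libraries is a single difference and does not measure the spread of the group well. The MI mean was 5.65-fold the sham mean, and the difference of mean log2(signal + 1) was 2.36 (SE 0.509, limma adjusted p 0.0155). Patch fell by 1.66 relative to MI (SE 0.416, limma adjusted p 0.0288), and its difference of 0.69 from sham (95% interval −0.43 to 1.81, limma adjusted p 1) did not pass.

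Mmp12, macrophage elastase, cuts elastin and is known mainly from macrophages. It had 0 reads in both sham libraries, which allows up to 3 reads in each, or a signal of 3.33 and 3.31. In MI its signal was 701.2 in MI1, 69.7 in MI2, 394.4 in MI162 and 97.7 in MI165. In Patch it was 5.62 in P695, 30.1 in P697, 78.8 in P985 and 3093 in P699. The gene was thus seen in each library with an infarct, patched or not, and in neither sham library. Its Patch values spanned 551-fold, and those other than P699 lay between 5.62 and 78.8.

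Set against the sham floor of 3 reads per library, MI was at least 95.1-fold higher, and at least 56.4-fold higher without MI1, the highest MI library. The log2 difference between MI and sham was 7.71 (SE 1.86, limma adjusted p 0.0214). That fitted size depends on the pseudocount, and with a pseudocount of 5 it was 5.43 and missed the threshold (limma adjusted p 0.0603). The lowest adjusted p over all alternatives was 3.44e-06, in DESeq2 without P699. In limma it was 0.000795, without MI2 and P699. Fits with a sham library left out are given below. Patch differed from MI by −1.31 with all libraries (95% interval −4.65 to 2.03, limma adjusted p 0.598) and by −1.84 without MI2 (limma adjusted p 0.434). Other single libraries also moved its size, to −0.73 without MI1, −0.83 without P697 and −0.09 without P695. Without P699 the difference was −3.04 (95% interval −5.16 to −0.93, limma adjusted p 0.0620), which also did not pass. It passed in DESeq2 without P699 (adjusted p 0.0416) and in limma with both MI2 and P699 left out (−3.57, adjusted p 0.0185), the lowest over all alternatives, where the highest was 0.978. Both fits were added after seeing the data. In either direction they called 3597 of 17030 and 4856 of 17095 genes, against 2251 of 17091 in the main fit. The sign of the Patch mean relative to MI also rested on P699: the Patch mean was 801.8 ± 1528 (SD, n = 4) with it and 38.2 ± 37.2 (SD, n = 3) without it, against 315.7 ± 296 in MI (SD, n = 4).

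Patch versus sham for Mmp12 gave 6.40 on the log2 scale (95% interval 2.31 to 10.5, limma adjusted p 1). Without P699 it gave 4.67 (95% interval 2.14 to 7.20, limma adjusted p 1). Both sizes depend on the pseudocount, since sham had 0 reads: with all libraries the difference was 7.36 with a pseudocount of 0.5 and 4.31 with a pseudocount of 5. Without P699 the mean of the other 3 Patch libraries was at least 11.5-fold above the sham floor. P985 carried that mean, which was at least 5.39-fold above the floor without it. Neither log2 difference passed over all genes. P695, with 5 reads, was near the floor.

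Mmp9, gelatinase B, shares its main substrates with Mmp2 and is stored in neutrophils and also made by macrophages. It was low throughout, with 3 and 4 reads in sham1 and sham2. The MI libraries had 11 reads in MI1, 14 in MI2, 82 in MI162 and 12 in MI165. The Patch libraries had 11 in P695, 4 in P697, 22 in P985 and 42 in P699. Patch overlapped MI, although MI162 lay above all Patch libraries, and P697 had as many reads as sham2.

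As signal, Mmp9 was 24.9 ± 28.9 (SD, n = 4) in MI, against 3.87 ± 0.763 (SD, n = 2) in sham and 20.3 ± 16.2 (SD, n = 4) for the Patch libraries. The log2 difference between MI and sham was 1.88 (95% interval −0.17 to 3.93, limma adjusted p 0.197). Between Patch and MI it was −0.11 (95% interval −1.79 to 1.56, limma adjusted p 0.937), with a sign that turned without MI162 (0.54), without P697 (0.42) or with quantile normalization (0.10). That difference was −0.23 without MI2 (limma adjusted p 0.858) and −0.57 without P699 (limma adjusted p 0.667). Between Patch and sham it was 1.77 (95% interval −0.28 to 3.81, limma adjusted p 1). No difference passed for Mmp9, and the intervals leave room for several-fold changes in either direction between Patch and MI. The MI mean rested on MI162: without it the mean was 10.5, or 2.71-fold the sham mean in place of 6.43-fold. The Patch mean was 13.1 without P699, and 8.41 without P699 and P985.

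Mmp3, stromelysin 1, degrades proteoglycans and can activate other metalloproteinases. It had 2 reads in sham1, 3 in MI1 and 0 in the other 8 libraries. Since 0 reads allow up to 3, these values are not distinguishable, and Mmp3 was below the filter of a mean signal of 1 and was not tested.

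**Figure D2:**
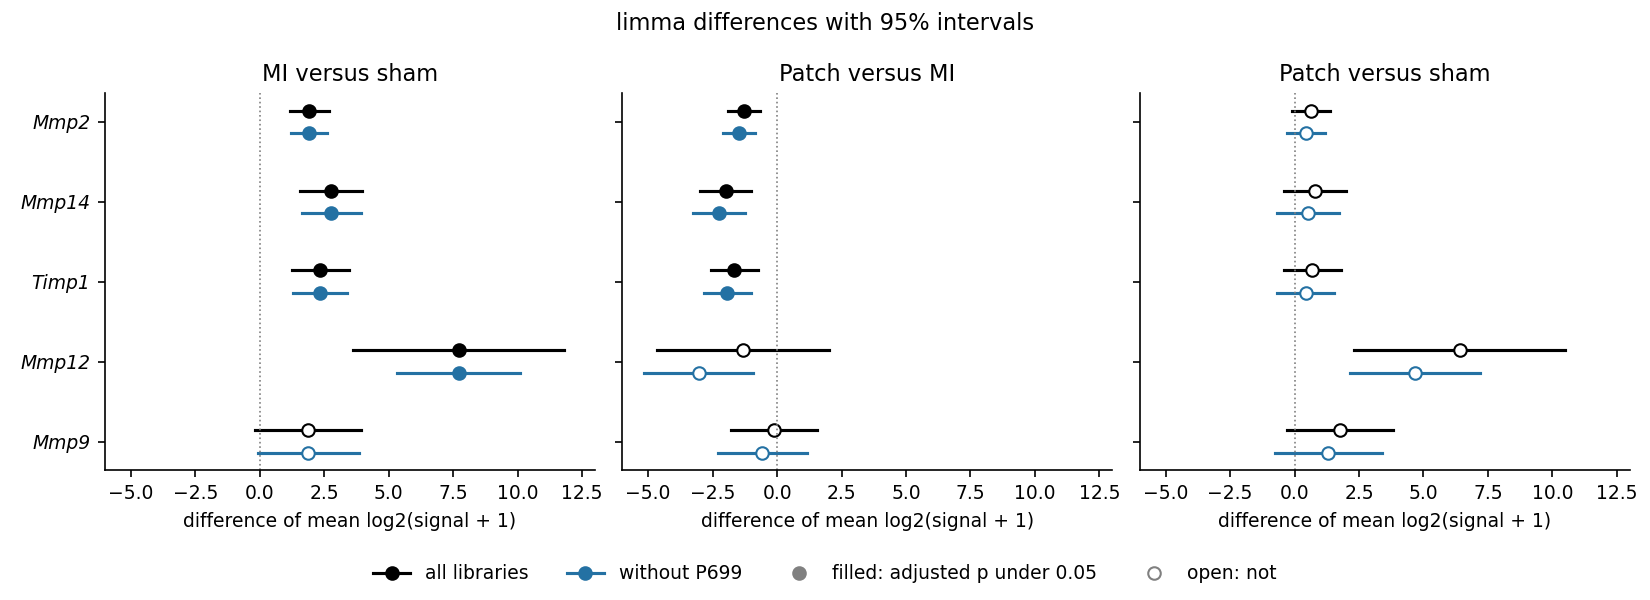
Differences of mean log2(signal + 1) for 5 members in 3 comparisons, with 95% limma intervals, from all 10 libraries (black) and without P699 (blue). Filled points passed an adjusted p under 0.05. Mmp2, Mmp14 and Timp1 are filled on the positive side for MI versus sham and on the negative side for Patch versus MI, and no point is filled for Patch versus sham.

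In Patch versus MI, 3 of the 5 members tested fell (Mmp2, Mmp14 and Timp1), where 5.45% of all genes were called lower in Patch. The median log2 difference was −1.31 over the 5 members, which is the value of Mmp12 and rests on P699, and 0.00 over all genes tested. Without P699 the median over the members was −1.93. In Mmp2 and Mmp14 all Patch libraries were below all MI libraries, as in 7.79% of genes. Without P699 that held for Timp1 as well, where 12.3% of genes had that order. Without P699 the differences were −1.48 for Mmp2 (SE 0.277, limma adjusted p 0.0167), −2.25 for Mmp14 (SE 0.456, limma adjusted p 0.0198) and −1.93 for Timp1 (SE 0.415, limma adjusted p 0.0224), and 5.84% of genes were then called lower.

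Single libraries decided whether these falls passed, while their direction stayed the same over all alternatives. For Mmp2 the limma adjusted p was 0.0539 without MI162, 0.0703 without P695, 0.0563 without P697 and 0.0650 without P985, while the log2 difference lay between −1.59 and −1.12 over all alternatives. For Mmp14 it was 0.0539, 0.0726, 0.0609 and 0.0515 without the same libraries, with log2 differences from −2.64 to −1.65. For Timp1 it was 0.0617 without MI1, 0.0854 without MI162, 0.0875 without P695, 0.0797 without P697 and 0.0587 without P985, with log2 differences from −2.02 to −1.34. In these fits fewer genes passed overall: 4.11% were called lower in Patch without MI1, 1.6% without MI162, 0.632% without P695, 1.6% without P697 and 0.83% without P985. Without MI2 all 3 falls passed, at −1.39 for Mmp2 (limma adjusted p 0.00677), −2.38 for Mmp14 (limma adjusted p 0.00186) and −1.75 for Timp1 (limma adjusted p 0.0181), in a fit that called 13.7% of all genes lower. The smaller adjusted p came with a smaller unadjusted limma p for Mmp14 (0.000905 to 8.56e-05), but not for Mmp2 (0.000697 to 0.000719) or Timp1 (0.00204 to 0.00327).

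The rises in MI rested on both sham libraries in the same way. With sham1 or sham2 left out, the remaining sham library is assumed to vary like the other groups, and none of the 4 rises passed, where 0.0351% of all genes were called higher in MI without sham1 and 0.117% without sham2. The limma adjusted p was then 0.0857 and 0.0957 for Mmp2, 0.0963 and 0.110 for Mmp14, 0.118 and 0.114 for Timp1, and 0.139 and 0.136 for Mmp12. The log2 differences stayed at 2.04 and 1.82 for Mmp2, 2.95 and 2.61 for Mmp14, 2.36 and 2.36 for Timp1 and 7.71 and 7.71 for Mmp12. With any single MI or Patch library left out, each of the 4 rises passed, and 4.07% (without MI162) to 14.6% (without MI2) of all genes were called higher.

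In Patch versus sham no member passed, and neither did any other gene in limma (0%, 0 of 17091, with 524 at an unadjusted p under 0.05). All 5 differences were positive, with a median of 0.78 over the members and 0.00 over all genes tested. The Patch libraries were above both sham libraries in 3 members, Mmp2, Mmp9 and Mmp12, as in 9.18% of genes. Without P699 the differences from sham were 0.45 for Mmp2, 0.53 for Mmp14, 0.43 for Timp1, 4.67 for Mmp12 and 1.31 for Mmp9, and none passed. For Mmp9 the separation of Patch from sham was between libraries with 4 reads each. A count of 0 does not show that Patch and sham were alike: the 95% intervals reach 1.39 for Mmp2, 1.98 for Mmp14 and 1.81 for Timp1. These tests share 1 estimate of the spread over the 3 groups. With only Patch and sham in the fit, 1449 of 16771 genes had an unadjusted limma p under 0.05, and no gene passed. That p was lower than in the shared fit for Mmp2 (0.0876 to 0.0184), Mmp9, Mmp14 and Timp1. For Mmp12 it was higher (0.00544 to 0.0108).

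**Figure D3:**
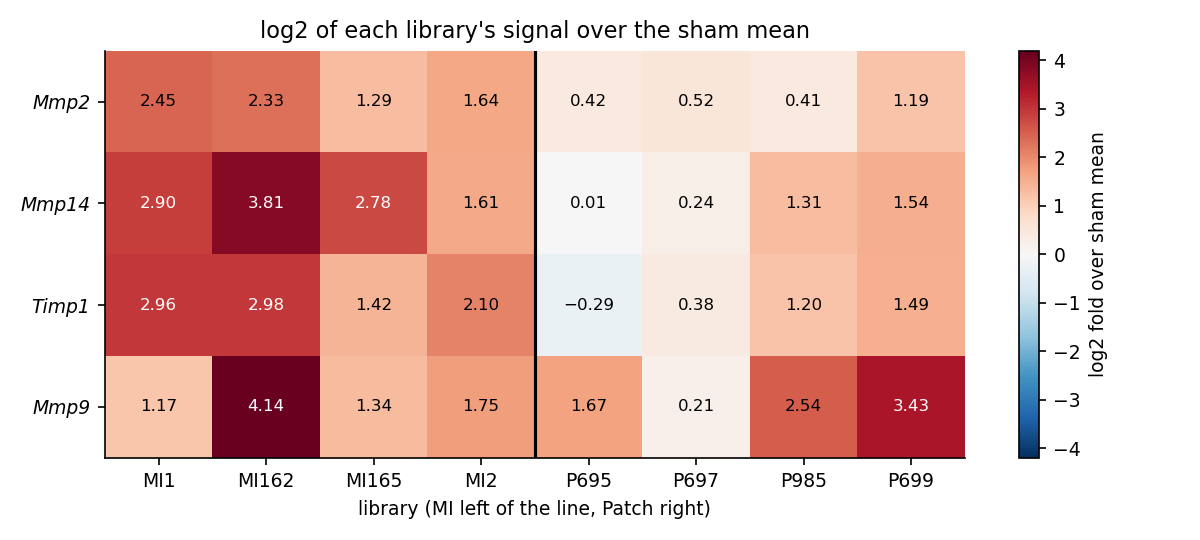
Log2 of the signal in each MI library (left of the line) and Patch library (right) over the mean of the 2 sham libraries, for Mmp2, Mmp14, Timp1 and Mmp9. Colour and printed value show the same quantity. P695 and P697 are at 0.52 or below for Mmp2, Mmp14 and Timp1, while P699 is at 1.19, 1.54 and 1.49.

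Within MI the members did not share an order of libraries. Within Patch, Mmp14, Timp1 and Mmp12 shared the order P699, P985, P697, P695 from the highest, while Mmp2 and Mmp9 differed. MI162 was the highest MI library for Mmp14, Timp1 and Mmp9, and MI1 for Mmp2 and Mmp12. MI165 was the lowest for Mmp2 and Timp1 but was near MI1 for Mmp14, at 6.85-fold the sham mean against 7.45-fold. MI2 was the lowest MI library for Mmp14 and Mmp12. P985 resembled P699 for Mmp14 and Timp1, at 2.47 and 2.30-fold the sham mean, but had the lowest Mmp2 of the Patch libraries, at 1.33-fold.

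P699 was the highest Patch library for all 5 members with signal, as it was for 28.6% of genes. It was 1.67-fold above the mean of the other 3 Patch libraries for Mmp2, 1.87-fold for Mmp14, 1.91-fold for Timp1, 3.19-fold for Mmp9 and 81.0-fold for Mmp12. Only for Mmp12 was it above the highest MI library, by 4.41-fold, as it was for 19.5% of genes. For Mmp2, Mmp14 and Timp1 it was at 7839, 1220 and 652.6, near the lowest MI library in each case, which had 8416, 1279 and 620.3. Levels of macrophage markers were not read, since the table's IDs carry no symbols, and their part in the Mmp12 value was not tested.

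Each metalloproteinase was set against Timp1 within a library, as log2 of the ratio of signal + 1. Gene length enters this ratio, so it is compared between libraries only and was given no test. For Mmp2 the ratio was 3.99 and 3.76 in sham, 3.24 to 3.76 in MI, and 4.59, 4.03, 3.09 and 3.58 in P695, P697, P985 and P699. With a pseudocount of 1 all MI libraries lay below sham, but MI165, at 3.7599, missed the lower sham value of 3.7645 by very little. With a pseudocount of 5 it was above it, at 3.7513 against 3.7419, so the groups are not separated. The Patch libraries covered the range of both other groups.

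For Mmp14 the ratio to Timp1 was 0.67 and 1.01 in sham and 0.71 to 1.15 in Patch. In MI it was 0.36 in MI2, 0.79 in MI1, 1.69 in MI162 and 2.21 in MI165. The MI libraries lay on both sides of the other groups, so a rise of Mmp14 beyond that of Timp1 was seen in 2 of 4 MI libraries only. For Mmp9 the group means were −6.07 ± 1.16 (SD, n = 4) in MI, against −5.59 ± 0.224 (SD, n = 2) in sham and −4.52 ± 0.902 (SD, n = 4) for the Patch libraries, and the groups overlapped. The difference of −0.48 between the MI and sham means was 0.015 without MI1, −0.92 without MI162 and −0.98 with a pseudocount of 5, so no direction is read from it. For Mmp12 the ratio was −3.82 to −1.36 in MI and −4.85 to −2.75 in the 3 Patch libraries other than P699, which was at 2.24.

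**Figure D4:**
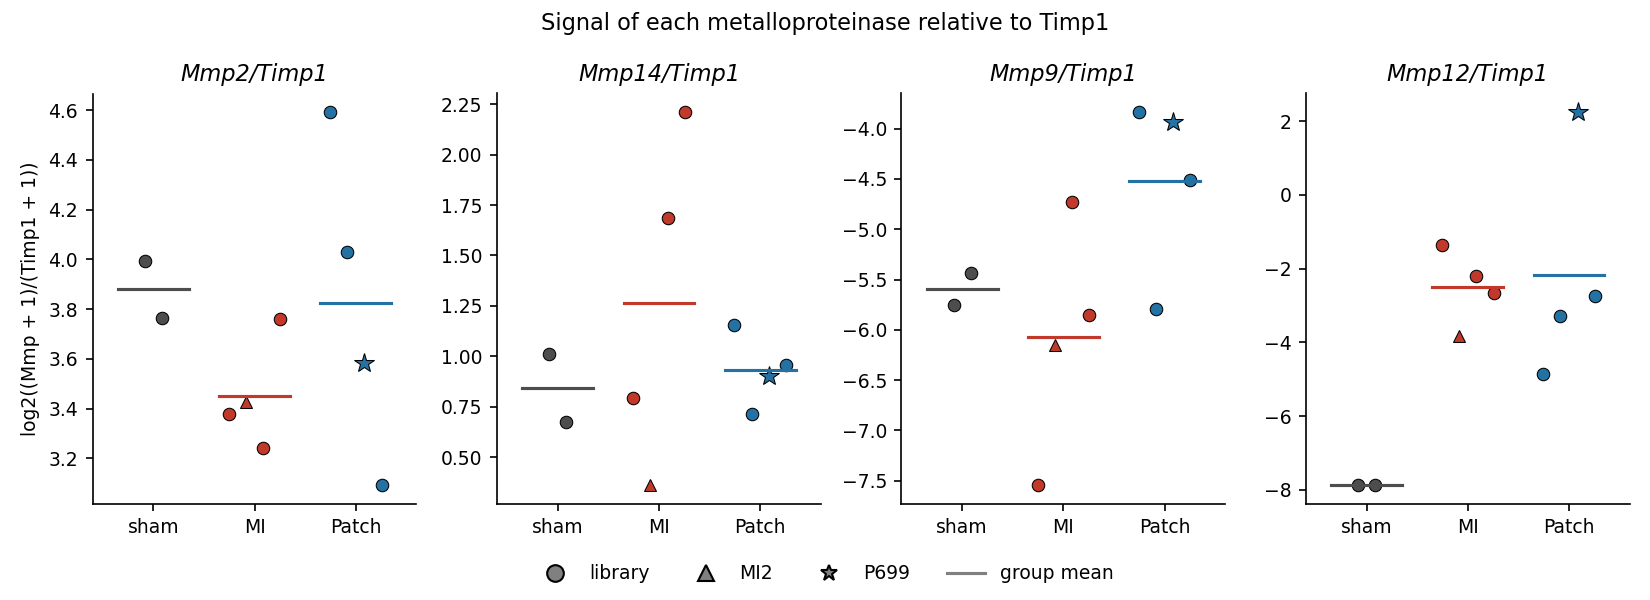
Log2 of (Mmp + 1)/(Timp1 + 1) in each library for Mmp2, Mmp14, Mmp9 and Mmp12, with group means as bars, MI2 as a triangle and P699 as a star. The Mmp12 ratio of P699 is 2.24, and the Mmp14 ratio spreads from 0.36 to 2.21 over the MI libraries.

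Timp1's pattern over the 10 libraries was compared with that of 13941 other genes by Pearson's r of log2(signal + 1). These are fewer than the 17091 genes of the fit, so ranks hold among the genes compared only. This r describes libraries that fall into groups and has no p. Mmp2 had r = 0.949 with Timp1 and ranked 42nd, Mmp14 had 0.924 and ranked 158th, Mmp12 had 0.791 and ranked 1357th, and Mmp9 had 0.598 and ranked 3001st. Without P699 the r of Mmp12 was 0.894, against 0.949 for Mmp2, 0.925 for Mmp14 and 0.633 for Mmp9, and without MI2 the values were 0.807, 0.946, 0.944 and 0.614 in the same order of genes. The ranks moved more than r did: Mmp2 ranked 85th without P699 and 98th without MI2, Mmp14 236th and 112th, Mmp12 527th and 1676th, and Mmp9 2929th and 3522nd. In each of these the gelatinase Mmp2 and its activator Mmp14 had a higher r with Timp1 than Mmp12 or Mmp9 had. The closest of the genes compared were ENSRNOG00000056728 (r = 0.978) and ENSRNOG00000051487 (r = 0.970), which carry no symbol here. Their log2 differences between MI and sham were 1.12 and 0.65, against 2.36 for Timp1, and are given with no test, since the genes were picked for their likeness to Timp1 over the same libraries.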

How the data were processed

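Polyadenylated RNA was made into libraries with random-hexamer priming, per the labels' protocols, which name no molecular identifiers, so the limits given for 0 reads reflect counting error alone. The authors deposited a normalized signal per gene. HISAT2, SAMtools, featureCounts, DESeq2 and build rn6 are named in the submitters' processing notes, while versions, strand setting and annotation are not given in the sources used here. Antisense or overlapping genes may therefore share reads with a member. Columns were assigned to groups by name, and 2 columns were not used.

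Every value in the 10 libraries was a whole multiple of 1 step per library (100% within 0.01 reads), from which reads were recovered. The fit kept the 17091 of 19955 genes whose mean signal reached 1. limma 3.58.1 in R 4.3.3 (lmFit, contrasts.fit, eBayes with a trend) was run on log2(signal + 1), which understates changes of low genes, with all 3 groups in 1 fit and two-sided tests. edgeR 4.0.16 and DESeq2 1.42.0 were alternatives on recovered reads, without P699, which was left out as a caution because its step is close to 1. Other alternatives changed the pseudocount, filter, scaling, weights, groups in the fit and libraries. Python 3.11.15 with pandas 2.3.3 and matplotlib 3.10.9 did the rest. The fits were also run on simulated counts, which had the same spread setting for every gene and no deviant library. That run does not show how the fits behave with libraries like MI2 or P699.

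The members were named throughout, and the genes most like Timp1 were those with the highest r among the genes compared. Members, lists and tests were chosen with earlier results of these data known. The 7 further gene lists and 12 cell type marker lists, written by symbol, were not analysed here, since 0 IDs of the table matched the reference gene table. The heart label was therefore not checked against markers.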

Additional observations from a re-analysis of the deposited data

Results flagged for a closer look

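Of 19 sets of 4 values, the members' signals and their log2 ratios to Timp1 in MI and in Patch, 4 had a library far from the other 3. Chance flags about 1 in 20 such sets, but this number is no measure against chance, since P699 was set apart with earlier results known and the sets share libraries. P699 had a Mmp2 signal of 7839, where the next Patch library had 4949. P699 also had a Mmp12 signal of 3093, where the next Patch library had 78.8. MI162 had a Mmp9 signal of 68.1, from 82 reads, where the next MI library had 14 reads. MI1 had a Mmp3 signal of 2.37, from 3 reads, where the other MI libraries had 0, values that counting error cannot tell apart.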

How the results depend on the processing

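Each fit was repeated under 21 alternatives. The planned edgeR and DESeq2 fits on all 10 libraries were not run, and they were run without P699 instead. Those fits, a fit without both MI2 and P699, and the folds, r and shares of genes called with libraries left out were added after seeing the data. No paired analysis was possible because columns do not carry the replicate numbers of the labels. No member that passed changed direction. Mmp9 in Patch versus MI, which did not pass, turned from −0.11 to 0.10 with quantile normalization, 0.54 without MI162 and 0.42 without P697, and was −0.57 without P699, the lowest with 1 library left out. The log2 ratio of Mmp12 to Timp1 in MI minus sham went from 5.36 to 3.09 with a pseudocount of 5, since Mmp12 had 0 reads in sham.

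The genes called in MI versus sham (2636) became 599 with only the groups compared, 5679 with array weights, 4867 without MI2 and P699, and 7 (without sham1) to 4979 (without MI2) with 1 library left out. The count was 24 without sham2 and 1448 without MI162. Patch versus MI (2251) became 1437, 5383 and 4856 in the same fits, 3597 in DESeq2, and 209 (without P695) to 4821 (without MI2) with 1 library left out. It was 292 without P985, 611 without P697, 649 without MI162, and 1446 and 1440 without sham1 and sham2. Patch versus sham (0) became 10 with array weights, 13 in DESeq2, and 0 to 2 with 1 library left out (2 without P695). Some of these fits held fewer libraries, and the cause of the changes in count was not tested. edgeR called 2078, 1711 and 0 genes in the 3 comparisons, and DESeq2 called 3620 in MI versus sham.

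Scaling to equal totals moved the median log2 difference of all genes to 0.24 in MI versus sham and −0.17 in Patch versus MI. It raised the share of higher calls from 47.3% to 73.5% and lowered it from 58.6% to 30.2%. In MI versus sham the share was also 73.0% with only the 2 groups compared, a fit that called 599 genes. In Patch versus MI without P699 the share was 52.6% in limma, 43.7% in edgeR and 47.2% in DESeq2. Mmp3 had at most 3 reads in a library and Mmp9 had 3 to 82, and whether depth limits either was not tested.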
